A study of Mus musculus with 24 samples.

Results

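The Z-disc is the protein plate that joins neighbouring sarcomeres, and 10 genes whose products build it or sense stretch at it were followed in left quadriceps muscle of dystrophic and healthy mice. The genes were chosen by name, with earlier results of these data known: Csrp3, Ankrd1, Ankrd2, Myoz1, Myoz2, Myoz3, Actn2, Actn3, Tcap and Ldb3. They are 10 of the 25369 genes listed for each of 24 libraries. The share of reads counted to each that was uniquely placed rounded to 100%. Mice were 25 weeks old and were wild type (WT) or dystrophic through the Lama2-CMD mutation (CMD), which affects the laminin chain of the muscle basement membrane; the labels do not name the allele. The 4 backgrounds were C57BL/6J (B6), DBA/2J (D2) and the lines labelled CMD-67 and CMD-87, named BXD-67 and BXD-87 in the study's design and 67 and 87 here; BXD lines are inbred mosaics of the other two. This gave 8 groups of 3 libraries. Libraries 1 to 3 were WT and 4 to 6 CMD in B6, 7 to 9 WT and 10 to 12 CMD in 67, 13 to 15 WT and 16 to 18 CMD in 87, and 19 to 21 WT and 22 to 24 CMD in D2. The comparisons were CMD against WT within each strain, the difference between strains in that effect, and the WT groups among themselves.

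Alpha-actinin crosslinks the thin filaments that enter the Z-disc from either side, and most other Z-disc proteins dock on it or on the end of titin. Adult fast fibres use Actn3 besides Actn2, and Myoz1 and Myoz3, while slow fibres and the heart use Actn2, Myoz2 and much of the Csrp3 and Ankrd2. The ankyrin-repeat proteins Ankrd1 and Ankrd2 bind titin and are known to be induced when muscle is stretched, loaded or injured.

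Libraries held 32292613 to 51715975 exon reads. Reads of 4 Y-linked genes went against the labelled sex in 4 D2 libraries: 19 and 21, both WT, were labelled male and read as female, and 22 and 24, both CMD, were labelled female and read as male. Whether their sex labels or the libraries themselves were exchanged was not tested. Every D2 value here takes the genotype labels as given, and an exchange of WT with CMD libraries would change all of them. The fit used has no sex term, and values with sex as read from those genes are given together after the strain comparisons. On the CPM scale, reads as a share of a normalised library size, Lama2 was at 36.5 to 50.3 in B6 WT and 16 to 23.9 in B6 CMD, but genotypes overlapped in 67 (24.3 to 28.4 in WT, 20 to 33.8 in CMD) and in D2 (23.8 to 42.5 in WT, 23.3 to 29.0 in CMD), so its level does not check the genotype labels there. The 8 skeletal muscle markers were high throughout, but their sum was lower in CMD, without overlap in any strain: 61573 to 72822 against 89058 to 97927 CPM in WT in B6, 61893 to 69983 against 95586 to 101806 in 67, 58143 to 83479 against 84863 to 104483 in 87, and 56410.0 to 78199 against 83449.8 to 87467 in D2. Its part in the members' values was not tested. Adjusted p-values are from edgeR's quasi-likelihood test with Benjamini-Hochberg adjustment over 14789 tested genes, among them all 10 members, and the threshold was 0.05. Log2 fold changes are differences in fitted level, given ± SE. The labels say no more than that libraries are separate samples, so p-values measure the spread between these samples only. In whole muscle, fewer cells of a type and less RNA per cell cannot be told apart.

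In CMD muscle of 67 and 87, Csrp3, Ankrd1, Ankrd2, Myoz2 and Actn2 rose and Actn3 fell. In B6, Ankrd1, Myoz2 and Actn2 rose and Actn3 fell, and in D2 the member that passed the test was Ankrd1. In B6, 4 of 10 members were called (3 raised, 1 lowered), against 18.4% of all tested genes (8.07% raised, 10.4% lowered). In 67, 7 were called (5 raised, 2 lowered), against 21.7% of tested genes (11.4% and 10.3%). In 87, 6 were called (5 raised, 1 lowered), against 20.8% (11.5% and 9.38%). In D2, 1 was called, as raised, against 20.2% called and 11.2% raised. The members' median log2 fold change was 0.48 in D2, 2.27 in 67, 2.23 in 87 and 1.33 in B6; over all tested genes the medians were 0.03, 0.00, 0.01 and 0.01. Because the members were chosen with earlier results known, these counts and medians describe the set and do not test it against other genes. The plot of levels by library shows each value behind these counts.

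**Figure D1:**
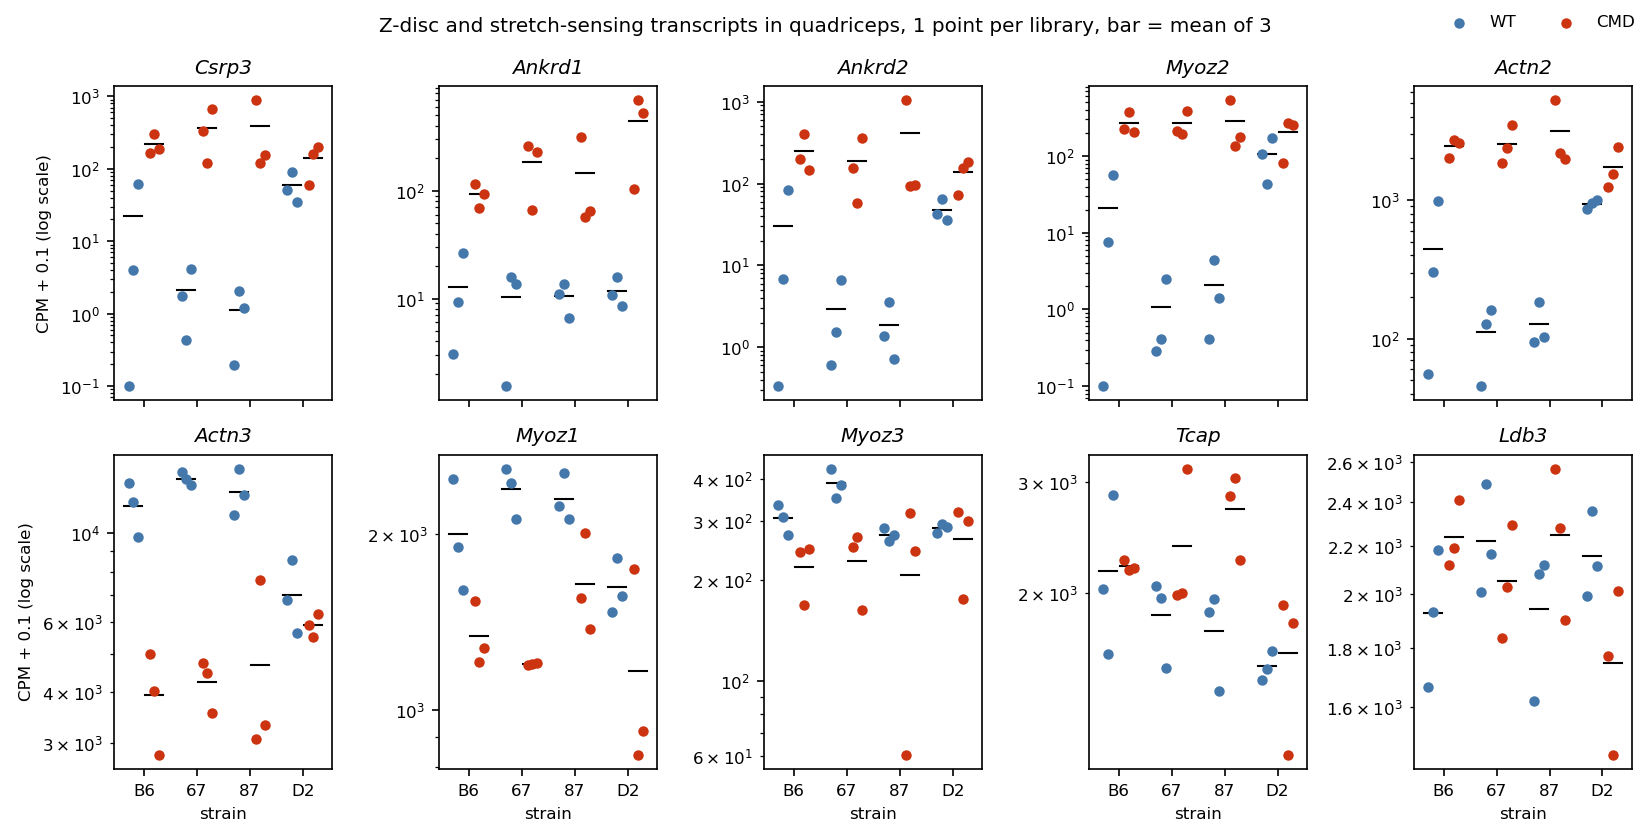
Level of each transcript (CPM + 0.1, log axis) in every library by strain, with WT in blue, CMD in red and bars at the mean of 3 libraries. Csrp3, Ankrd2, Myoz2 and Actn2 lie far apart between genotypes in 67 and 87, while in D2 the WT points are already high and Ankrd1 alone is widely separated.

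Length-scaled levels (TPM, as deposited) place the members in their healthy order. In B6 WT the mean TPM was highest for Actn3 (8326 ± 1274 SD), Tcap (4678 ± 1288) and Myoz1 (3180.0 ± 621), then Ldb3 (652 ± 104), Actn2 (307 ± 321) and Myoz3 (183 ± 19.4). The rest were low: Ankrd2 at 54.2 ± 82.5 TPM, Csrp3 at 41.6 ± 65.2, Myoz2 at 32.0 ± 45.4 and Ankrd1 at 12.3 ± 11.3, 4 levels that do not differ beyond their spread. In B6 CMD the order was Tcap (4250.4 ± 95.8 TPM), Actn3 (2476 ± 607), Myoz1 (1895 ± 183), Actn2 (1484 ± 267) and Ldb3 (671 ± 68.0). Ankrd2 (400.3 ± 222 TPM), Csrp3 (375 ± 131) and Myoz2 (364 ± 126) followed within each other's spread, above Myoz3 (117 ± 23.9) and Ankrd1 (78.5 ± 18.1). Mean TPM of Ankrd2, Csrp3 and Myoz2 lay below that of Myoz3 in WT and above it in CMD.

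The 5 members that rose in 67 and 87 all have an entry in RefSeq's table of gene starts (build GRCm38.p6). Their 250 bases before the start are shown because the genes moved together. Capitals mark E-boxes (CANNTG), MCAT elements (CATTCC on either strand, bound by TEAD factors) and MEF2 sites. The E-box letters include sites of MyoD-family factors but are not particular to them.
Ankrd1, chr19:36119845-36120094, minus strand: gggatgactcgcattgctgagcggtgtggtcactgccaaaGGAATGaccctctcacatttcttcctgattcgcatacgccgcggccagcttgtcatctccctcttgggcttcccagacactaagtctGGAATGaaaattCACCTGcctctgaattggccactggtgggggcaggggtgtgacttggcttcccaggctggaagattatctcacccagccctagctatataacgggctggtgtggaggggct
Ankrd2, chr19:42035777-42036026, plus strand: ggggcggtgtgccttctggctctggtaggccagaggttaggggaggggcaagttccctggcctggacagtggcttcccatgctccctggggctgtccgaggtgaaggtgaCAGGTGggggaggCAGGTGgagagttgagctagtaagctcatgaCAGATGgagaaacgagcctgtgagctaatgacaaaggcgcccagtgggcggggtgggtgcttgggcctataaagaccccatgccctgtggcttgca
Csrp3, chr7:48848052-48848301, minus strand: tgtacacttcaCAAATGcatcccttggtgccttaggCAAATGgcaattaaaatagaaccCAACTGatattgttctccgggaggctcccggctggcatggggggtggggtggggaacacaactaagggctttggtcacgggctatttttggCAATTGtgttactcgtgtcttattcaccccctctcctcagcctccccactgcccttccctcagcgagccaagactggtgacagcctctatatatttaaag
Myoz2, chr3:123034988-123035237, minus strand: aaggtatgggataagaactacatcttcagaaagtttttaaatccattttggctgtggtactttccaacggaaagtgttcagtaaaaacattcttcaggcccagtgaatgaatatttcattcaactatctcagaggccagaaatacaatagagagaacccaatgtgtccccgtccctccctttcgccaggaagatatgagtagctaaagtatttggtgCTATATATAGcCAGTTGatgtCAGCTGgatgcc
Actn2, chr13:12340733-12340982, minus strand: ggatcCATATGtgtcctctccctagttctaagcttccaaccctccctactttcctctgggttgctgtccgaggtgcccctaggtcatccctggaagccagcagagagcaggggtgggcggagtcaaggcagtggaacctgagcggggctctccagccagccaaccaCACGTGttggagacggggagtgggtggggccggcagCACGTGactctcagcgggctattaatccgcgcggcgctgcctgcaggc
Ankrd1 held 2 MCAT elements, starting 210 and 123 bases before the start, and 1 E-box. Myoz2 held 1 MEF2 site 33 bases before its start, next to 2 E-boxes. Ankrd2 held 3 E-boxes, Csrp3 4 and Actn2 3, and none of these 3 windows held the MCAT letters or the MEF2 site. Among 32851 RefSeq windows of the same length, 12.6% held the MCAT letters, 2.92% the MEF2 site and 66.2% an E-box, searched on both strands; the MEF2 site and the E-box do not overlap in Myoz2. A match describes the letters and is not evidence of binding. Csrp3 has a further RefSeq start whose window is not shown, and Ldb3, which did not pass the test, is also in the table; Myoz1, Tcap, Actn3 and Myoz3 are not shown.

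Csrp3 encodes muscle LIM protein, a Z-disc adaptor of slow fibres and heart muscle. In B6 WT its level was 0, 3.92 and 61.7 CPM in libraries 1, 2 and 3, and in B6 CMD it was 167, 306 and 187 CPM. The 0 in library 1 allows up to 3 of 32292613 reads, or 0.101 CPM, counting error only. Libraries of 67 WT held 1.65, 0.335 and 4.03 CPM against 333, 119 and 659 CPM in 67 CMD. For 87, WT libraries were at 0.0953, 1.94 and 1.08 CPM and CMD libraries at 880.4, 119 and 153 CPM. Every CMD library lay above every WT library in these 3 strains, and library 16 was the highest of all. In D2, WT held 51.5, 91.4 and 34.2 CPM and CMD 58.7, 160.2 and 201 CPM, so the groups overlapped. The log2 fold change was 7.53 ± 1.56 in 67 (adjusted p 0.00261) and 8.54 ± 1.64 in 87 (0.00153), and fell short of the threshold in B6 (3.33 ± 1.27, 0.0724) and D2 (1.25 ± 1.17, 0.468). Without library 3, the WT library with 61.7 CPM, the B6 value was 6.81 (adjusted p 0.00869).

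Ankrd2, the titin-binding ankyrin-repeat protein enriched in slow fibres, had its highest WT levels in D2 and in library 3. WT libraries held 0.235, 6.70 and 83.6 CPM in B6, 0.507, 1.42 and 6.5 in 67, 1.26, 3.48 and 0.625 in 87, and 42.0, 64.7 and 35.3 in D2. CMD libraries held 199, 405 and 145 CPM in B6, 157, 58.4 and 357 in 67, 1041, 92.8 and 95.7 in 87, and 71.5, 157 and 181 in D2. Genotypes did not overlap in any strain, and library 16 again stood far above its 2 partners. Ankrd2 rose by 6.08 ± 1.47 on the log2 scale in 67 (adjusted p 0.0071) and by 7.86 ± 1.60 in 87 (0.00221); the differences in B6 (3.04 ± 1.26, 0.0972) and D2 (1.53 ± 1.19, 0.371) did not pass. Leaving out library 3 gave 6.18 in B6 (adjusted p 0.0141). Without library 16 the 87 calls held at lower values, 5.73 for Ankrd2 (0.00865) and 7.03 for Csrp3 (0.00424). In 67 single libraries moved Ankrd2 to 7.61 (without 9) or 5.25 (without 12), and Csrp3 to 8.51 or 6.81. Without library 14 the 87 values were 8.80 for Ankrd2 and 9.33 for Csrp3.

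Ankrd1, the stress-inducible relative of Ankrd2, was the member that rose in all 4 strains. Its WT level was low everywhere: 2.96, 9.24 and 26.1 CPM in B6, 1.44, 15.6 and 13.6 in 67, 11, 13.6 and 6.56 in 87, and 10.8, 15.6 and 8.39 in D2. CMD libraries held 115, 68.6 and 93.9 CPM in B6, 258, 66.5 and 230.2 in 67, 317, 57.4 and 64.9 in 87, and 103, 691 and 531 in D2. All CMD libraries exceeded all WT libraries of their strain, and the 2 highest levels, in libraries 23 and 24, were both in D2. Log2 fold changes were 2.85 ± 0.88 in B6 (adjusted p 0.0299), 4.18 ± 0.93 in 67 (0.00412), 3.82 ± 0.92 in 87 (0.0065) and 5.25 ± 0.98 in D2 (0.00155). The differences between strains in this effect did not pass the F test (adjusted p 0.482), and neither did the WT levels (0.99). In D2 the call held in all 34 alternatives, with values of 4.41 to 6.07. In B6 it was lost when library 1, 2, 4, 5 or 6 was left out, with adjusted p of 0.0564 to 0.112, and was 3.94 without library 3. In 87 it was 2.56 without library 16 (adjusted p 0.0463), whose 317 CPM stood above its partners.

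The balance between the 2 ankyrin-repeat genes differed between D2 and the other strains. As a share of the summed TPM of Ankrd1 and Ankrd2, Ankrd1 made up 78.1% ± 9.34 (SD, n = 3) in 87 WT and 21.7% ± 6.80 in 87 CMD. The 67 mean was 66.0% ± 17.1 for WT and 36.6% ± 10.6 for CMD. B6 WT libraries were spread from 14.2% to 87.0%, with a mean of 47.8% ± 36.7, and B6 CMD was at 19.1% ± 9.46. In D2 the share was 11.5% ± 0.419 in WT and 58.0% ± 13.5 in CMD. The change was 46.5 points in D2 and averaged -38.2 points in the other 3 strains, a difference of 84.7 points. This comparison was chosen after the values were seen. An exact two-sided permutation test of genotype within strains gave p = 6.25e-05 for it (160000 regroupings). That test has no genotype effect in any strain as its null, so it does not test whether the effects were equal between strains. Pooled over strains the difference of -17.0 points did not pass (exact permutation p = 0.13).

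**Figure D2:**
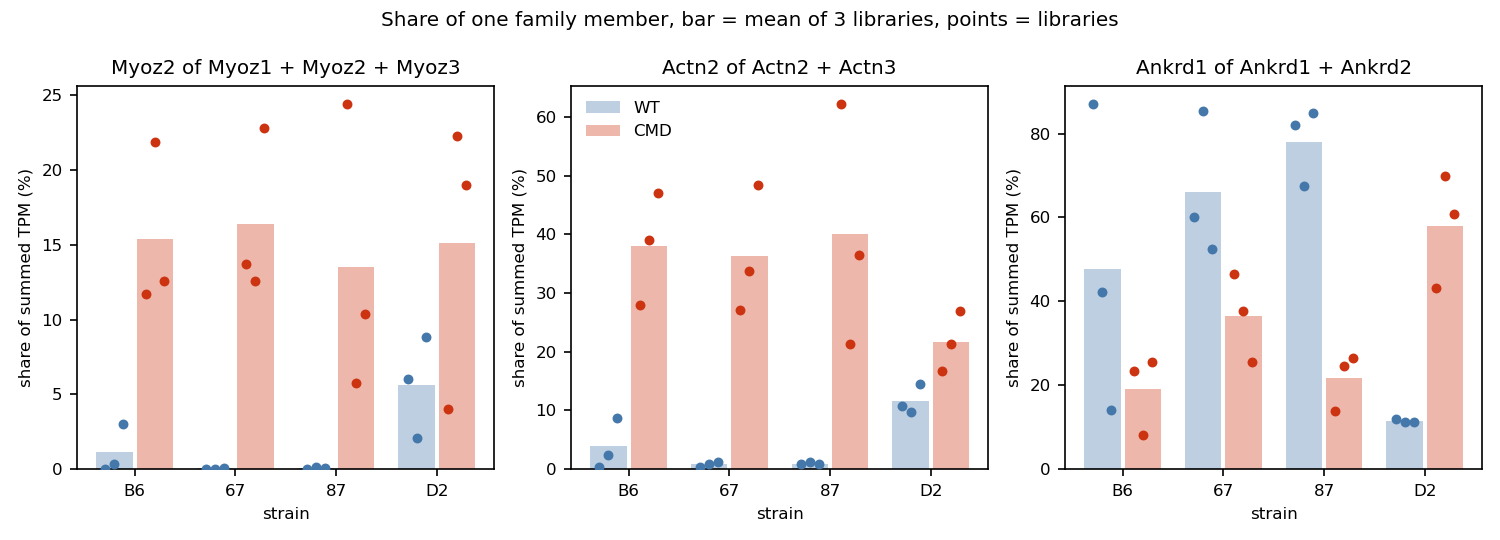
Share of summed TPM (%) taken by Myoz2, Actn2 and Ankrd1 within their families by strain, with bars at the mean of 3 libraries and points for libraries, WT in blue and CMD in red. In 67 the mean Actn2 share is 0.789% in WT and 36.4% in CMD, and the mean Ankrd1 share is 78.1% and 21.7% in 87 but 11.5% and 58.0% in D2.

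Myozenins, also called calsarcins, tether the phosphatase calcineurin to alpha-actinin. Myoz2, the slow and cardiac form, was at 0, 7.41 and 56.0 CPM in B6 WT and at 226, 375 and 207 CPM in B6 CMD, and the 0 allows up to 0.101 CPM. In 67, WT held 0.187, 0.307 and 2.39 CPM and CMD 215, 196 and 392 CPM. In 87, WT held 0.310, 4.37 and 1.29 CPM and CMD 534, 136 and 178 CPM. D2 WT libraries held 106, 43.0 and 171 CPM, within the range of the D2 CMD libraries at 82.3, 273 and 254 CPM except for library 20. Genotypes overlapped only in D2. Myoz2 rose by 3.67 ± 1.20 on the log2 scale in B6 (adjusted p 0.04), 8.12 ± 1.51 in 67 (0.00117) and 7.17 ± 1.44 in 87 (0.00197), and its D2 difference was 0.93 ± 1.09 (0.566). The B6 call was lost when library 1, 2, 4, 5 or 6 was left out, with adjusted p of 0.0525 to 0.145, and the value was 6.19 without library 3 (0.0109). Single libraries moved the Myoz2 value to 10.06 in 67 (without 9), and to 8.46 (without 14) or 6.31 (without 16) in 87, all called.

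The fast-fibre myozenins had mean CPM in CMD below WT in every strain, and 1 of these differences passed the test. By mean TPM, Myoz3 in D2 was higher in CMD (171 in WT, 194 in CMD), so its direction there depended on the scale. Myoz1 held 2482, 1899 and 1604 CPM in B6 WT and 1533, 1209.8 and 1276 CPM in B6 CMD. In 67 it held 2581, 2444 and 2119 CPM in WT and 1196, 1198 and 1202 CPM in CMD. Levels in 87 were 2229, 2541 and 2117 CPM in WT and 1553, 2003 and 1378 CPM in CMD; in D2 they were 1472, 1818 and 1569 CPM in WT and 1742, 839 and 923 CPM in CMD. Genotypes were apart in B6, 67 and 87 and overlapped in D2 through library 22. Myoz1 fell by 0.99 ± 0.23 on the log2 scale in 67 (adjusted p 0.00507); the values of -0.57 ± 0.23 in B6 (0.0816), -0.48 ± 0.23 in 87 (0.14) and -0.47 ± 0.23 in D2 (0.142) did not pass. Without library 22 the D2 value was -0.88 (adjusted p 0.00354). Myoz3 ranged from 60.3 CPM in library 16 to 428 CPM in library 7, with log2 fold changes of -0.77 ± 0.36 in 67, -0.48 ± 0.36 in B6, -0.40 ± 0.36 in 87 and -0.11 ± 0.36 in D2 (adjusted p 0.138 to 0.848). Library 16 stood apart from the other 87 CMD libraries, at 316 and 244 CPM; without it the 87 value was 0.03 and the 67 value was -0.78 (adjusted p 0.00857).

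Of the summed TPM of the 3 myozenins, Myoz2 took 1.13% ± 1.66 (SD, n = 3) in B6 WT and 15.4% ± 5.65 in B6 CMD. In 67 its share was 0.0395% ± 0.0530 in WT and 16.4% ± 5.62 in CMD, and in 87 it was 0.0753% ± 0.0746 and 13.5% ± 9.72. In D2 it was 5.65% ± 3.40 in WT and 15.1% ± 9.73 in CMD. The mean CMD shares lay between 13.5% and 16.4%. Over the 4 strains the mean difference was 13.4 points (exact permutation p = 3.75e-05, adjusted over 3 families 5.62e-05). Within 1 strain the exact test cannot go below 0.1, which B6, 67 and 87 reached, and D2 gave 0.3.

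Actn2, present in all fibres, was at 55.1, 305 and 980.3 CPM in B6 WT and 2018, 2701 and 2599 CPM in B6 CMD. It was at 45.4, 128 and 162 CPM in 67 WT and 1839.8, 2369.9 and 3473 CPM in 67 CMD. It was at 94.7, 185 and 102 CPM in 87 WT and 5253, 2175 and 1989 CPM in 87 CMD. It was at 857, 959 and 996 CPM in D2 WT and 1237, 1555 and 2429.8 CPM in D2 CMD. Genotypes did not overlap in any strain. Actn2 rose by 2.45 ± 0.67 on the log2 scale in B6 (adjusted p 0.0167), 4.52 ± 0.73 in 67 (0.000445) and 4.62 ± 0.74 in 87 (0.00042), with 0.89 ± 0.64 in D2 (0.326). The B6 call was lost without library 2 (0.079) or library 5 (0.0516), and with B6 libraries fitted alone (0.0772), and its value was 3.78 without library 3. In 87 it was 4.02 without library 16 (0.00166).

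Actn3, the alpha-actinin of the fastest fibres and the most abundant member by TPM in every WT group, fell. Its level was 13319, 11923 and 9745 CPM in B6 WT and 4983, 4029 and 2798 CPM in B6 CMD. In 67 WT it was 14112, 13564 and 13169 CPM, and in 67 CMD 4734, 4466 and 3547 CPM. In 87 it was 11089.5, 14398 and 12400.0 CPM in WT and 3065, 7633 and 3316 CPM in CMD. D2 WT libraries, at 6790.4, 8541 and 5633 CPM, overlapped D2 CMD at 5874, 5481 and 6282 CPM. The D2 mean of Actn3 was lower in CMD by CPM (6988 in WT, 5879 in CMD) but not by TPM (4992 and 5228). Actn3 fell by 1.57 ± 0.29 on the log2 scale in B6 (adjusted p 0.00182), 1.68 ± 0.29 in 67 (0.00068) and 1.43 ± 0.29 in 87 (0.00192), and its D2 difference was -0.25 ± 0.28 (0.551). Its B6 and 67 calls held in all 34 alternatives; fitted on the 87 libraries alone, the 87 value was -1.44 (adjusted p 0.097).

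Actn2 rose as a share of the summed TPM of both alpha-actinins. The share was 3.86% ± 4.39 (SD, n = 3) in B6 WT and 38.1% ± 9.61 in B6 CMD. It was 0.789% ± 0.439 and 36.4% ± 10.9 in 67, and 0.938% ± 0.243 and 40.0% ± 20.6 in 87. In D2 it was 11.7% ± 2.51 in WT and 21.7% ± 5.13 in CMD, with no overlap in any strain. Over strains the difference was 29.7 points (exact permutation p = 1.25e-05, the smallest the 160000 regroupings can give, adjusted 3.75e-05).

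The anchors Tcap and Ldb3 did not pass the test in any strain. Tcap, or telethonin, caps the Z-disc end of titin. It ranged from 1103 CPM in library 23 to 3152 CPM in library 12, with log2 fold changes of 0.64 ± 0.24 in 87, 0.37 ± 0.24 in 67, 0.07 ± 0.24 in D2 and 0.03 ± 0.24 in B6 (adjusted p 0.0592 to 0.95). In 87 the WT libraries at 1867, 1953 and 1393 CPM lay below the CMD libraries at 2852, 3045 and 2255 CPM. By mean TPM, Tcap in B6 was lower in CMD (4678 in WT, 4250.4 in CMD), against a higher mean CPM (2164 and 2205). Ldb3, the PDZ-LIM protein Cypher that holds alpha-actinin, ranged from 1457 CPM in library 23 to 2562 CPM in library 16. Its log2 fold changes were -0.30 ± 0.16 in D2, -0.11 ± 0.16 in 67, 0.21 ± 0.16 in 87 and 0.22 ± 0.16 in B6 (adjusted p 0.189 to 0.656), and genotypes overlapped in every strain. Mean TPM of Ldb3 was not lower in CMD in D2 (727 in WT, 733 in CMD) or in 67 (695 and 714).

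**Figure D3:**
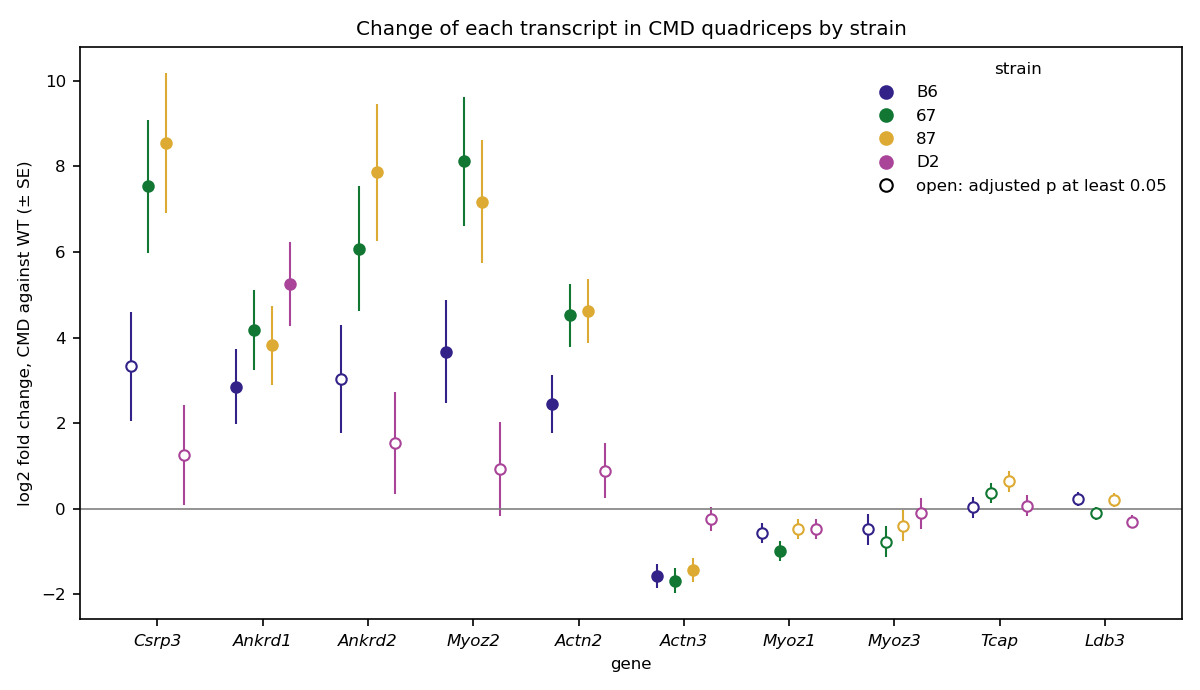
Log2 fold change of CMD against WT (± SE) for each transcript and strain, filled where the adjusted p passed 0.05 and open where it did not. In D2 the Csrp3, Ankrd2, Myoz2 and Actn2 points lie between 0.89 and 1.53, below the 67 and 87 points, and Ankrd1 is the only filled D2 point at 5.25.

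The CMD effect itself was compared between strains. By the F test over the 4 strains, 3 of 10 members passed, against 4.67% of tested genes: Myoz2 (adjusted p 0.0425), Csrp3 (0.0478) and Actn2 (0.0396). Between D2 and 87, 4 of 10 members passed, each with a smaller log2 fold change in D2, as 4.88% of tested genes had. The differences in log2 fold change were -7.29 ± 1.87 for Csrp3 (adjusted p 0.0219), -6.33 ± 1.83 for Ankrd2 (0.0386), -6.24 ± 1.69 for Myoz2 (0.0285) and -3.73 ± 0.92 for Actn2 (0.0179). Between D2 and 67, 1 member passed, where 1% of tested genes passed with a smaller log2 fold change in D2: Myoz2 at -7.19 ± 1.75 (0.0463). For Actn3 the smaller fall in D2 did not pass the F test (0.0849). With sex from reads as a term, the 3 F tests ended above the threshold (0.0673 for Myoz2, 0.0968 for Csrp3 and 0.0829 for Actn2), while the D2 against 87 differences of Csrp3 (-6.30, 0.0283), Myoz2 (-5.57, 0.0221) and Actn2 (-3.11, 0.0236) still passed. Ankrd2 then had -4.48 (0.0984). Without libraries 16 and 23 the F tests gave 0.0681 for Myoz2, 0.087 for Csrp3 and 0.0886 for Actn2, and the D2 against 87 differences of Csrp3 (0.0815), Ankrd2 (0.178), Myoz2 (0.0748) and Actn2 (0.0824) did not pass either. With 1 of the 24 libraries left out in turn, the F test passed in 9 fits for Myoz2, 7 for Csrp3 and 10 for Actn2. Without library 16 the D2 against 87 differences were -5.82 for Csrp3 (0.0552), -4.23 for Ankrd2 (0.144) and -5.40 for Myoz2 (0.0585), while Actn2 still passed. They were also lost without library 13 or 15 for Csrp3, Ankrd2 and Myoz2 and without 13 for Actn2, for Myoz2 without 21, 22 or 24, and for Ankrd2 without any 1 of the 6 D2 libraries. Without library 14 they were -8.11 for Csrp3, -7.30 for Ankrd2 and -7.55 for Myoz2. Myoz2 between D2 and 67 passed in 15 of 33 alternatives and was -9.16 without library 9.

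Healthy muscle of the strains differed as well. By the F test over the 4 WT groups, 4 of 10 members passed, against 8.66% of tested genes: Myoz2 (adjusted p 0.00371), Actn2 (0.00734), Csrp3 (0.0182) and Ankrd2 (0.0459). Against 67 WT, 4 of 10 members differed in D2 WT, where 4.68% of tested genes were higher and 6.06% lower: Myoz2 was higher by 6.79 ± 1.44 on the log2 scale (0.00472), Csrp3 by 4.88 ± 1.40 (0.0292) and Actn2 by 3.07 ± 0.68 (0.00666), and Actn3 was lower, at -0.96 ± 0.28 (0.0337). Against 87 WT, 4 of 10 were higher in D2 WT, where 3.12% of tested genes were: Csrp3 by 5.84 ± 1.48 (0.0192), Myoz2 by 5.76 ± 1.35 (0.0121), Ankrd2 by 4.74 ± 1.40 (0.0459) and Actn2 by 2.88 ± 0.68 (0.0124). Against B6 WT the D2 WT differences were 2.33 ± 1.14 for Myoz2 (0.271) and 1.43 ± 1.19 for Csrp3 (0.577), and library 3 lay within the D2 WT range of both. These comparisons share the WT libraries of the CMD effects above and are not independent of them. In the F test the Csrp3 call was lost without library 20 (0.0562), and the Ankrd2 call held in 8 of 24 fits with 1 library left out. Between D2 and 67, the Actn3 call was lost without library 7, 8, 9, 19 or 21 (0.0665 to 0.143). The Csrp3 call there was lost without library 7, 8, 9, 19 or 20 (0.0545 to 0.121) and with the compared libraries fitted alone (0.0503). Between D2 and 87, Csrp3 was lost without library 13, 14 or 15 (0.0548 to 0.0869), and Myoz2 (0.0614 and 0.0634) and Actn2 (0.0665 and 0.063) without 13 or 15. Ankrd2 there passed in 10 of 24 fits with 1 library left out and had 3.98 with sex from reads (0.0513). Without library 9 the D2 against 67 difference was 8.74 for Myoz2 and 5.88 for Csrp3. Without library 14 the D2 against 87 difference was 7.02 for Myoz2, 6.60 for Csrp3 and 5.66 for Ankrd2.

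Sex was not balanced over the groups. Sex as read from Y-linked genes was male in libraries 1, 7 and 13, the only male of each of B6, 67 and 87 WT, and these had the lowest Actn2 and Myoz2 of their groups. All 3 D2 WT libraries read as female, so D2 WT was compared with mixed groups. The 67 CMD libraries 10, 11 and 12 also read as female, so the CMD effect in 67 set females against a mixed group. Female WT libraries alone held Actn2 at 305 and 980.3 CPM in B6, 128 and 162 in 67, 185 and 102 in 87, and 857, 959 and 996 in D2. Female CMD libraries had the highest Actn2 of B6 (library 5) and of 87 (library 16), while in D2 the female library 23 lay between the 2 males. The fitted male minus female coefficient, added after the values were seen, was -2.28 ± 0.72 for Ankrd2, -2.13 ± 0.70 for Myoz2, -1.90 ± 0.77 for Csrp3, -1.38 ± 0.48 for Ankrd1, -1.10 ± 0.37 for Actn2 and 0.64 ± 0.19 for Myoz3 on the log2 scale (adjusted p 0.105 to 0.214, with 1.22% of tested genes called). All 4 WT F tests still passed with this term (Myoz2 0.00179, Actn2 0.00604, Csrp3 0.0207, Ankrd2 0.0474). CMD effects in 67 with this term were 7.74 for Myoz2 (adjusted p 0.00053), 6.85 for Csrp3 (0.00227) and 5.72 for Ankrd2 (0.00309). Actn2 had 4.31 (0.000198) and Ankrd1 4.05 (0.00173) in 67. In 87 the effects were 8.97 for Csrp3 (0.000421), 8.01 for Myoz2 (0.000284) and 7.76 for Ankrd2 (0.000505). Actn2 had 4.85 (7.79e-05) and Ankrd1 3.73 (0.00211) in 87. With sex from reads the CMD effects in D2 were larger, at 3.29 for Ankrd2 (adjusted p 0.0639), 2.67 for Csrp3 (0.141), 2.45 for Myoz2 (0.128), 1.74 for Actn2 (0.0591) and 6.07 for Ankrd1 (0.000383), and Myoz1 passed at -0.67 (0.0493). In B6 this term gave 5.10 for Myoz2 (0.00556), 4.59 for Csrp3 (0.0175), 4.46 for Ankrd2 (0.0144), 3.81 for Ankrd1 (0.00476), 3.17 for Actn2 (0.00232) and -0.65 for Myoz1 (0.0361), so Csrp3, Ankrd2 and Myoz1 also passed there.

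Members varied together also within groups. Over the 24 libraries, after each group's mean was taken off the log2 CPM, Pearson's r was 0.93 between Actn2 and Ankrd2, 0.91 between Actn2 and Myoz2, 0.91 between Csrp3 and Myoz2, and 0.75 between Actn2 and Ankrd1. Actn3 had an r of -0.33 with Actn2, against -0.89 when group means were left in. These correlations are a description: the libraries share depth, scaling and composition. Of the tested genes outside the set, Fhl1, a four-and-a-half LIM protein of the sarcomere, was most like 4 members over the 24 libraries, with r of 0.98 for Actn2, 0.98 for Myoz2, 0.97 for Ankrd2 and 0.95 for Csrp3. The next were Hspb7 for Actn2 (0.98), Myh1, the myosin of fast 2X fibres, for Myoz2 (0.97), Lmcd1 for Ankrd2 (0.96) and Myom3 for Csrp3 (0.95). Ankrd1 was most like Runx1 (0.92), Actn3 like Wnt4 (0.96), Myoz1 like the fast troponin Tnnt3 (0.96), Myoz3 like Ky (0.97), Ldb3 like myotilin, Myot (0.82), and Tcap like Asb8 (0.82).

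**Figure D4:**
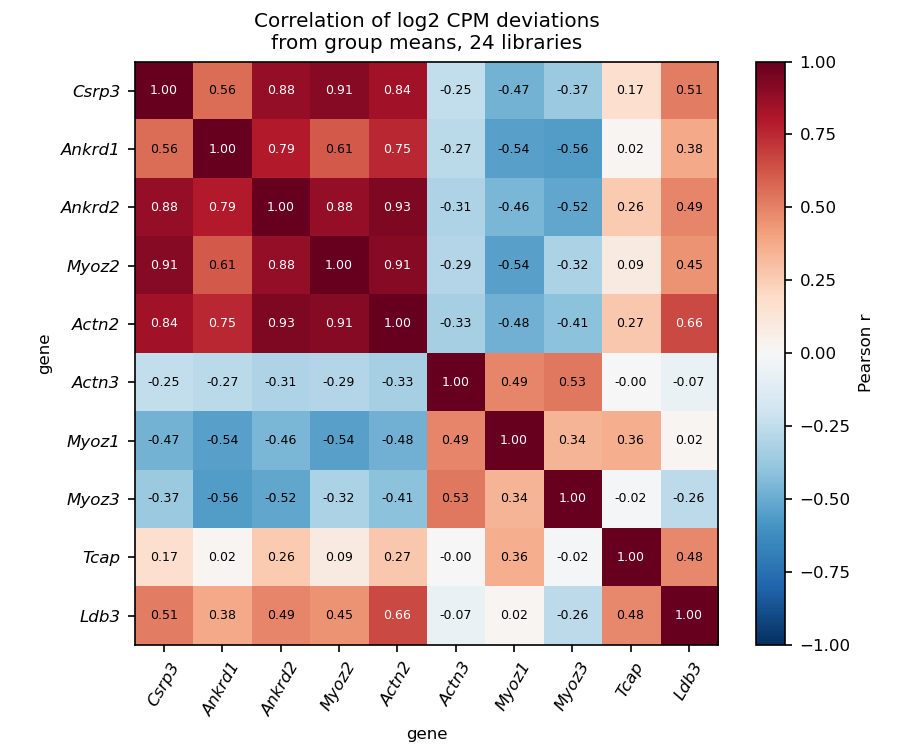
Pearson r between members over 24 libraries of log2 CPM after each group mean was taken off, red for positive and blue for negative. Csrp3, Ankrd2, Myoz2 and Actn2 form a block with r of 0.84 to 0.93, and Ankrd1 reaches 0.56 to 0.79 with them.

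Slow-fibre content was read from 10 genes of slow fibres, among them Myh7 and Tnni1. Their summed level was 67.9, 81.6 and 190.5 CPM in B6 WT and 171, 203 and 194 CPM in B6 CMD, and library 3, the WT library with high Csrp3, Ankrd2 and Myoz2, was the high one. It was 60.7, 43.4 and 58.1 CPM in 67 WT and 789, 282 and 373 CPM in 67 CMD. In 87 it was 67.4, 55.1 and 52.3 CPM in WT and 92.7, 184 and 178 CPM in CMD, with library 16, the highest for Csrp3, Ankrd2, Myoz2 and Actn2, at the lowest CMD sum. In D2 it was 763, 99.8 and 2773 CPM in WT and 216, 1558 and 852 CPM in CMD. Of the 10 slow-fibre genes, 9 rose in 67 and 4 in 87; the largest was Tnni1, at 7.16 ± 1.41 (adjusted p 0.00178) and 6.74 ± 1.63 (0.00675). In B6, 1 rose (Tnni1, 3.97 ± 1.22, 0.0303) and 1 fell (Myh7b, -4.46 ± 1.31, 0.0238). The Myh7b libraries overlapped between genotypes in B6. In D2, 0 of the 10 slow-fibre genes were called, and their median log2 fold change was 0.01. Of all tested genes, 8.07% rose in B6, 11.4% in 67, 11.5% in 87 and 11.2% in D2, where 20.2% were called in either direction. All 10 slow-fibre genes differed among WT groups, against 8.66% of tested genes. Within groups the sum had an r of 0.14 with Csrp3, 0.14 with Actn2, 0.13 with Ankrd2, 0.34 with Myoz2 and -0.55 with Myoz1. With group means left in, r over the 24 libraries was 0.60 with Csrp3, 0.60 with Actn2, 0.58 with Ankrd2, 0.68 with Myoz2 and -0.78 with Myoz1. The part of slow-fibre content in the members' changes was not tested.

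Among 12 fast-fibre genes, 11 were called in 67 (2 raised, 9 lowered), 7 in 87 (2 raised, 5 lowered), 4 in B6 (all lowered) and 1 in D2 (Atp2a1, -0.58 ± 0.20, adjusted p 0.0433). For these and the lists below, the shares of all tested genes called were 21.7% in 67, 20.8% in 87, 18.4% in B6 and 20.2% in D2. The raised genes in 67 and 87 were Myh2 (5.75 ± 1.55 in 67, adjusted p 0.0129, and 4.87 ± 1.48 in 87, 0.0247) and Myh1 (4.29 ± 0.98, 0.00482, and 4.19 ± 0.97, 0.00534), the myosins of 2A and 2X fibres. Myh4, the myosin of the fastest 2B fibres, fell by 1.69 ± 0.35 on the log2 scale in B6 (0.00415), 2.08 ± 0.36 in 67 (0.000722) and 1.0 ± 0.35 in 87 (0.0477), with -0.74 ± 0.35 in D2 (0.135). Genes of regenerating fibres rose in each strain, 8 of 10, led in D2 by the fusion factor Mymk (6.64 ± 1.0, 0.000303). Of 9 cardiac markers, 4 had enough reads to test; Tnni3 rose in B6 (1.78 ± 0.60, 0.0452) and 87 (1.73 ± 0.54, 0.0279), Myh6 in 67 (5.06 ± 1.73, 0.0428) and Nppa led 2 in D2 (2.29 ± 0.76, 0.0403). All 9 summed to at most 15.1 CPM outside D2, where library 21 reached 131 CPM, of which Myh6 made 130.0 CPM. Of 6 macrophage markers 4 rose in D2, led by Adgre1 (3.50 ± 0.69, 0.00226), and Cd68 led the 2 raised in 67 (2.17 ± 0.60, 0.0143) and was the 1 raised in 87 (2.44 ± 0.59, 0.00716), where its libraries overlapped between genotypes and the median of the 6 was -0.06. Their sum was 41.1 to 68.8 CPM in D2 WT and 229.8, 68.5 and 213 CPM in D2 CMD, where library 23, with the highest Ankrd1, had the lowest sum. Fibroblast markers were called in 67 (2 raised, Lum 1.42 ± 0.47, 0.0382), 87 (1 lowered, Pdgfra -0.59 ± 0.19, 0.0296) and D2 (2 raised, Col1a1 1.85 ± 0.58, 0.0313), and library 16 had their lowest sum, 139.5 CPM. The tendon marker Thbs4 rose in B6 (2.58 ± 0.51, 0.00292), 67 (2.43 ± 0.51, 0.00277) and D2 (1.59 ± 0.49, 0.0296), and Fmod fell in 87 (-2.12 ± 0.71, 0.0399). Smooth muscle Acta2 (1.30 ± 0.43, 0.0399) and endothelial Pecam1 (0.55 ± 0.18, 0.0408) rose in B6, Lmod1 fell in D2 (-1.73 ± 0.56, 0.0346), and the adipocyte marker Cfd rose in D2 (3.64 ± 1.05, 0.0208). The Cfd libraries overlapped between genotypes there. Of the 8 skeletal muscle markers, 2 were lowered in D2, 4 in B6, 4 in 67 and 3 in 87, led by Pygm in D2 (-0.97 ± 0.22, 0.00558) and Ryr1 in B6 (-1.34 ± 0.25, 0.00224). The 1 raised marker, Mb, the oxygen store myoglobin, rose in 67 (4.13 ± 0.86, 0.00269) and 87 (3.52 ± 0.84, 0.00625). The part of these cell types in the members' levels was not tested.

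The other 35 Z-disc and titin-linked genes moved in either direction. In B6 16 were called (7 raised, 9 lowered), in 67 16 (10 raised, 6 lowered), in 87 15 (9 raised, 6 lowered) and in D2 3 (1 raised, 2 lowered), with medians of -0.01, 0.01, -0.21 and 0.10. The shares called over all tested genes were 18.4% in B6, 21.7% in 67, 20.8% in 87 and 20.2% in D2. Fhl2, a LIM protein that binds titin, was raised in all strains, by 3.27 ± 0.53 in B6 (adjusted p 0.000845), 4.25 ± 0.56 in 67 (9.85e-05), 5.20 ± 0.58 in 87 (2.75e-05) and 1.64 ± 0.48 in D2 (0.0228). The Fhl2 libraries overlapped between genotypes in D2. Fhl1 rose in B6 (2.41 ± 0.78, 0.0376), 67 (4.88 ± 0.87, 0.000887) and 87 (3.70 ± 0.83, 0.00401), with 0.08 ± 0.74 in D2 (0.949), and passed the F test of the strain difference (0.0492) as Fhl2 did (0.0243). In D2 the 2 lowered genes were the titin-linked ligase Trim55 (-0.70 ± 0.22, 0.0299) and the protease Capn3 (-1.07 ± 0.17, 0.000424). Values of Fhl1 outside 67, of Fhl2 in 67 and of both lowered genes are given after they were seen, outside the naming rule.

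Of 18 genes of the YAP, TAZ and TEAD pathway, which reads mechanical load and acts through MCAT elements, 5 were called in B6 (2 raised, 3 lowered), 11 in 67 (9 raised, 2 lowered), 7 in 87 (4 raised, 3 lowered) and 4 in D2 (1 raised, 3 lowered). The matricellular targets led: Ccn2 in B6 (1.44 ± 0.44, adjusted p 0.0279) and 67 (3.14 ± 0.47, 0.000244) and Ccn1 in 87 (2.70 ± 0.50, 0.00128). In D2 the 1 raised gene of this list was Wwtr1, which encodes TAZ (0.53 ± 0.17, 0.035), and the largest called change was Vgll4 (-0.81 ± 0.21, 0.0135). Of the targets named above, D2 values were 1.10 ± 0.48 for Ccn1 (0.106), with all CMD libraries above WT, and -0.14 ± 0.43 for Ccn2 (0.842). Of 14 genes of calcineurin, NFAT and MEF2, to which the myozenins are tied, 7 were called in B6 (3 raised, 4 lowered), 8 in 67 (4 raised, 4 lowered), 7 in 87 (3 raised, 4 lowered) and 4 in D2 (1 raised, 3 lowered). Rcan1, the calcineurin inhibitor induced by calcineurin itself, rose by 1.98 ± 0.28 in B6 (0.000313), 2.06 ± 0.28 in 67 (0.000116) and 2.34 ± 0.28 in 87 (4.98e-05). In D2 the Rcan1 value of 0.76 ± 0.27 fell short of the threshold (0.0515), with all CMD libraries above WT. The strain difference for Rcan1 did not pass the F test (0.0535). The largest called change of this list in D2 was Cabin1 (0.81 ± 0.19, 0.0062). Beside both lists, the shares of all tested genes called were 18.4% in B6, 21.7% in 67, 20.8% in 87 and 20.2% in D2.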

How the data were processed

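Left quadriceps RNA of 24 mouse samples was sequenced with a stranded mRNA kit as paired reads, per the labels' protocols, and aligned to GRCm39, per the submitters' processing notes. Aligner and read counter: not given in the sources used here. Per gene, the authors deposited for every library total and unique exon read counts per gene, TPM (exon length scaled) and RPKM, per the file headers. Genes were matched across files by identifier.

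Counts were fitted as 8 group means with edgeR 4.0.16 (R 4.3.3; TMM scaling, filterByExpr with a minimum count of 10 and a total of 15, quasi-likelihood test), and p-values were adjusted over all tested genes. A log2 CPM used a prior count of 2, and CPM divides counts by the TMM-adjusted library size. The SE is the log2 fold change divided by the square root of F. Sex was read from 4 Y-linked genes, male above 5 CPM. Family shares used deposited TPM and an exact two-sided permutation test of genotype within strains. The test was checked on simulated counts.

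The members and gene lists (other Z-disc, YAP, TAZ and TEAD, calcineurin, slow, fast and regenerating fibre, and cell type marker lists) were chosen with earlier results of these data known. From each list the called gene with the largest change per strain is named, and for each member the tested genes with the highest Pearson r. Alternatives were a sex term, RLE scaling, no filter, DESeq2 1.42.0, unique exon reads, fewer libraries, each library left out, and, for shares, deposited RPKM or CPM.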

Additional observations from a re-analysis of the deposited data

Results flagged for a closer look

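These values were flagged for a strain difference in the CMD effect. The Ankrd1 share of Ankrd1 and Ankrd2 changed by 84.7 points more in D2 than in the mean of the other strains. This comparison was chosen after the values were seen. Its exact permutation test (p = 6.25e-05) has no genotype effect in any strain as its null and does not test equal effects. The F test of the strain difference passed for Csrp3 (adjusted p 0.0478), Myoz2 (0.0425) and Actn2 (0.0396), by edgeR's quasi-likelihood test. It passed in 13 of 33 alternatives for Csrp3, 15 for Myoz2 and 16 for Actn2. With sex from reads as a term, or without libraries 16 and 23, it passed for none of them. The log2 fold change in D2 minus that in 87 was -7.29 for Csrp3 (adjusted p 0.0219), -6.24 for Myoz2 (0.0285), -3.73 for Actn2 (0.0179) and -6.33 for Ankrd2 (0.0386). In D2 minus 67 it was -7.19 for Myoz2 (0.0463). Without libraries 16 and 23 no D2 minus 87 difference passed.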

How the results depend on the processing

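No paired analysis was possible because libraries of different groups share no replicate number. Members called in B6 numbered 7 with sex from reads as a term, 8 with that term and libraries 16 and 23 left out, 2 with B6 libraries fitted alone, and 1 to 6 with each library left out (1 without library 2 or 5), against 4. In 67 the count was 7 to 8 and in 87 it was 6 to 7 with each library left out. In D2 it was 2 with sex as labelled, with sex from reads or with D2 libraries fitted alone, and 1 to 2 with each library left out (2 without library 22). Members whose CMD effect differed among strains numbered 5 by DESeq2 and 0 to 4 with each library left out, against 3. By edgeR they numbered 0 of 10 with sex from reads (4 at an unadjusted p under 0.05), 0 without libraries 16 and 23 (6) and 0 with both (4). Members that differed among WT groups numbered 2 (without library 20) to 5 with each library left out, against 4. With each library left out the shares changed by 12 to 14.8 points for Myoz2, 27.0 to 32.1 for Actn2 and -21.2 to -12.1 for Ankrd1. The alternatives with both sex from reads and fewer libraries, and those without libraries 3 and 16, were added after the data were seen.

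Directions turned in values that did not pass the test. Tcap in B6 was -0.03 with sex from reads, and -0.14 to 0.30 with each library left out (-0.00 without library 1, -0.14 without library 2). Tcap in D2 was -0.04 with sex from reads, and -0.08 to 0.25 with each library left out (-0.01 without library 19, -0.08 without library 22, -0.04 without library 24). With sex as labelled, D2 values were -0.76 for Myoz2, -0.08 for Csrp3, -0.15 for Ankrd2 and 0.18 for Myoz3. With sex from reads they were 2.45 for Myoz2, 2.67 for Csrp3, 3.29 for Ankrd2 and -0.58 for Myoz3. Myoz3 was 0.05 in 87 and 0.10 in D2 without libraries 16 and 23, 0.03 in 87 without libraries 3 and 16 or without library 16, and 0.09 in D2 without library 23; with each library left out it ranged from -0.82 to 0.03 in 87 and from -0.27 to 0.09 in D2. Ldb3 in D2 was 0.02 with sex from reads and libraries 16 and 23 left out. The cause was not tested. Over all genes, CMD calls in 87 went from 3083 to 355 with 87 libraries fitted alone, and in D2 from 2986 to 941 with sex from reads and libraries 16 and 23 left out. Calls in the F test of the strain difference went from 690 to 1555 with sex as labelled and 1740 by DESeq2, and in the WT F test from 1281 to 2192 by DESeq2 and 2014 without libraries 16 and 23. With 3 libraries a group, low WT counts such as those of Csrp3 and Myoz2 limit the precision of a fold change.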
